A study of Mus musculus with 6 samples.

Results

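Mitosis and chromosome segregation genes are described here in dendritic cells grown from mouse bone marrow. The list holds 50 genes that drive cells into mitosis, build the spindle, attach and separate the chromosomes and divide the cell. A gene entered through its annotated symbol in the authors' log2 table, and its probe with the highest mean there over the 6 arrays stood for it. This found 28 of the 50 genes, among 7896 genes tested. The other 22 had no probe named here and were not analysed here: Ccna2, Ccnb1, Ccnb2, Cks1b, Cks2, Nek2, Hmmr, Cenpe, Cenpf, Cenph, Nuf2, Bub1, Ttk, Aurkb, Ncapg, Smc2, Smc4, Mki67, Ube2c, Ect2, Kif20a and Racgap1.

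All cells came from bone marrow of Rag2 knockout mice aged 6 weeks, labelled C57BL/10NAGCSnAi-(KO) Rag2 on a C57BL background, so the controls carry the deletion too. Rag2 is needed to assemble antigen receptors. The marrow was grown for 6 days with GM-CSF and IL-4, each at 1.5 ng/ml, a culture that also holds dividing precursors and other myeloid cells. The study had 3 groups of 2 arrays. Unstimulated cells are the control. The ROS group took up hematoporphyrin, a porphyrin that generates reactive oxygen species (ROS) in light, at 1 µg/ml for 1 h, was lit for 3 min and was cultured for 18 h. The LPS group received lipopolysaccharide, the bacterial ligand of Toll-like receptor 4, at 1 µg/ml for 18 h. Whether control cells had hematoporphyrin, light or the further 18 h of culture is not in the labels, nor is it stated that replicates came from separate mice.

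In a dividing cell, the kinase Cdk1 and its cyclins start mitosis. Aurora and polo kinases build the bipolar spindle, kinetochores tie each chromosome to it, and the spindle checkpoint holds the cell until all are attached. Cdc20 then turns on the anaphase-promoting complex, a ubiquitin ligase that frees the protease separase to cut cohesin, and cytokinesis follows. Most of these genes are transcribed in late S and G2 phase and shut off in cells that have left the cycle, and dendritic cells stop dividing as they mature from their precursors.

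Levels below are log2 normalised intensities, and changes are differences of group means on that scale with the standard error (SE, n = 2 arrays per group). A gene was called where limma's Benjamini-Hochberg adjusted p over all kept probes was under 0.05. Probes differ in brightness, so levels are compared between arrays only. Depth here means signal over background: 10428 to 11438 of the 25697 probes were above background on each array, and the small number of arrays limits the precision. A gene below detection on 1 or both arrays of the dimmer group gets a fold that is a lower bound, written "at least". The bound holds for the processing used here only, since the size of changes depends on background correction and scaling. It sets the brighter group against, on each dim array, the higher of the gene's own value and the lowest detected value of that array. Where the brighter group is not above that, no fold is given, and medians at bounds count the gene as unchanged. Of the 15 dendritic cell markers listed, 11 were measured; all 11 were above background on 5 arrays and 10 on the first LPS array, where Itgax, the CD11c integrin, was not.

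With LPS, 25 of the 28 mitosis genes fell, none rose and 3 did not pass the test. Over all genes tested, 29.0% fell and 24.7% rose. The median change of the 28 genes was -2.31, or -2.08 with the 17 dim genes set at their bounds, against -0.05 over all genes. Of the 17, Tpx2 and Cdc25c have no bound and were counted as unchanged in the median at bounds. On both LPS arrays 27 of the 28 genes lay below both unstimulated arrays, against 41.7% of all genes, and none lay above both, against 37.1%. On the unstimulated and ROS arrays 27 or 28 of the genes were above background, and on the LPS arrays 13 and 12. In this comparison 17 of the 28 genes were below detection on 1 or both arrays of their dimmer group. The same held for 1338 of all 7896 genes tested. The authors' table lists only probes detected on at least 3 arrays, so a gene seen on the LPS arrays alone could not enter. The numbers above background are in part set by this choice, which also holds for all genes tested. In RNA from a mixed culture, fewer dividing cells and less RNA per cell cannot be told apart.

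**Figure D1:**
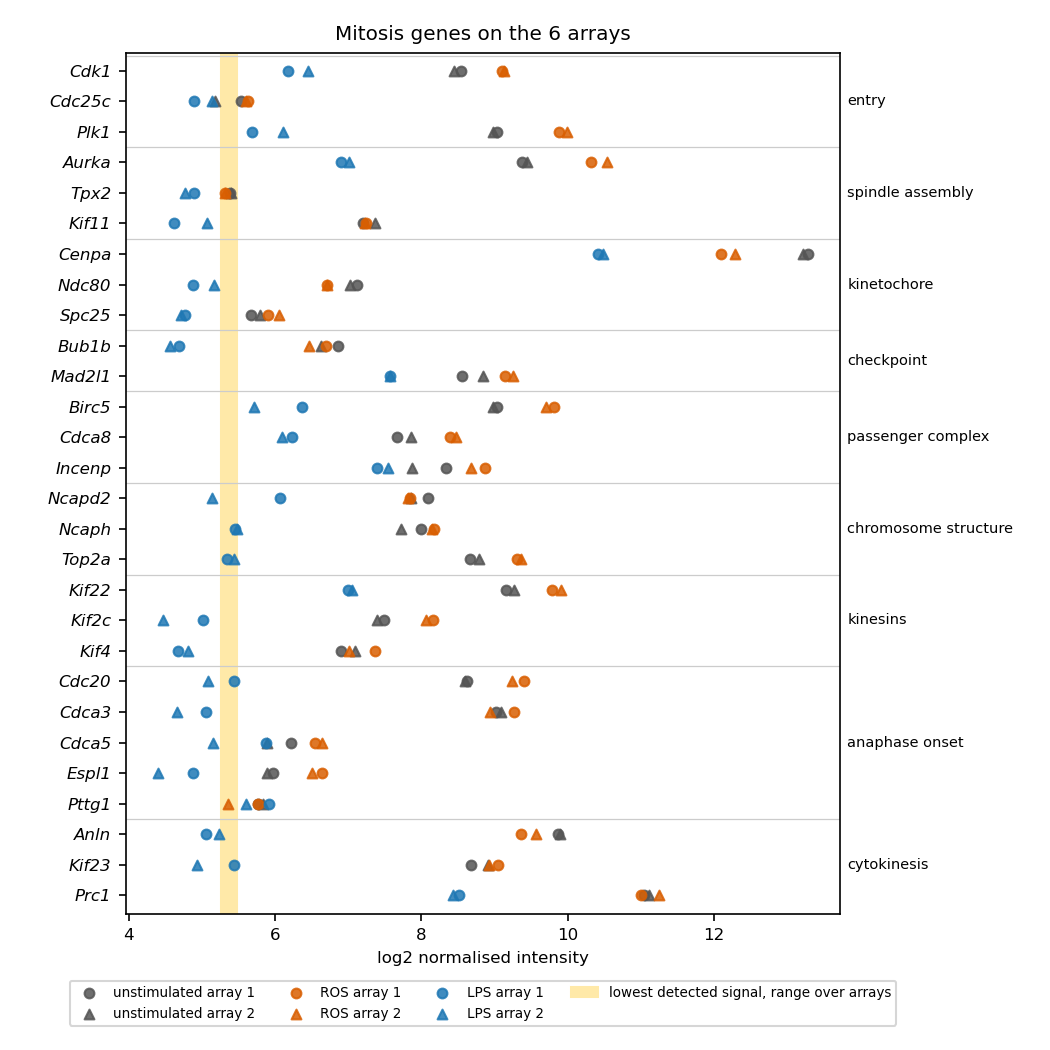
Log2 normalised intensity (x axis) of each of the 28 mitosis genes (rows, grouped by role) on each of the 6 arrays; circles are array 1, triangles array 2, and the shaded band is the range over arrays of the lowest detected signal. The blue LPS points lie left of the grey unstimulated points in 27 rows, in most of them in or below the band, while Pttg1 overlaps.

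Most of the genes with a promoter window share short motifs there. Whether the motifs have a part in the changes was not tested. Many mitotic promoters are bound through a CHR element, whose core is TTTGAA, by the DREAM and MuvB complexes, and through CCAAT boxes by NF-Y. Both motifs were searched on both strands in RefSeq windows (GRCm38.p6) from 250 bases before to 50 after the annotated start, and no matches overlapped. Windows matched 25 of the 28 genes. TTTGAA was in 21 of the 25 (84.0%), against 11.8% of the 6508 tested genes with a window. CCAAT was in 17 (68.0%), against 39.5%, and both motifs were in the same 17 (68.0%), against 5.0%. A match is a run of letters in this window and not a measured binding site. In the sequences below, 5′ to 3′ on the gene's strand, capitals mark TTTGAA and CCAAT or their reverse complements. Plk1 (chr7:122159185-122159484, plus strand) and Cdc20 (chr4:118437294-118437593, minus strand) fell with LPS and rose with ROS. Kif23 (chr9:61946750-61947049, minus strand) fell with LPS and did not pass the test with ROS. Anln (chr9:22389157-22389456, minus strand) and Cenpa (chr5:30666636-30666935, plus strand) fell in both comparisons. Pttg1 (chr11:43425932-43426231, minus strand) lay near background and passed the test in neither.
Plk1: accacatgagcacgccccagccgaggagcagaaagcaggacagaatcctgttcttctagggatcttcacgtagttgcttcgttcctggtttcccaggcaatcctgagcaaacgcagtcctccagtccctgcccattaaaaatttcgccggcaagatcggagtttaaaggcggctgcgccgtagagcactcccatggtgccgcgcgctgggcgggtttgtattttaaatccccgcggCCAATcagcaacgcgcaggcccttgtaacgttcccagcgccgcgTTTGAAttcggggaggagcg
Cdc20: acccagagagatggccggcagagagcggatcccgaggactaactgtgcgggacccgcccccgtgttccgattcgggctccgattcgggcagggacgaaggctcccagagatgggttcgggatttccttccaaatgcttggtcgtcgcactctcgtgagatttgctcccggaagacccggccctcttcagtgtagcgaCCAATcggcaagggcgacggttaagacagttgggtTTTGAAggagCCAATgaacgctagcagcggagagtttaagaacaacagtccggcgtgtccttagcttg
Kif23: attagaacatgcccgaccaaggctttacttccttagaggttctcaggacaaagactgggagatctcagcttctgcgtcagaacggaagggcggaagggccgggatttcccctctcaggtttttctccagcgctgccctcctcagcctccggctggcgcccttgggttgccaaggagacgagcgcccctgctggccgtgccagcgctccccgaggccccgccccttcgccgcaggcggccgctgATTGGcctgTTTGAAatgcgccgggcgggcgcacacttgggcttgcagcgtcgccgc
Anln: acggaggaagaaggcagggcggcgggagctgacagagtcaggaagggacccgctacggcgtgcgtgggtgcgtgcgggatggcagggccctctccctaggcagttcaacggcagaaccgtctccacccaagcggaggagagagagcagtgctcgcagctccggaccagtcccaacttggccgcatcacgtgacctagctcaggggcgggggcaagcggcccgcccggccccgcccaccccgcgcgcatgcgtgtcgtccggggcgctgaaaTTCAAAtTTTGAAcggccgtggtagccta
Cenpa: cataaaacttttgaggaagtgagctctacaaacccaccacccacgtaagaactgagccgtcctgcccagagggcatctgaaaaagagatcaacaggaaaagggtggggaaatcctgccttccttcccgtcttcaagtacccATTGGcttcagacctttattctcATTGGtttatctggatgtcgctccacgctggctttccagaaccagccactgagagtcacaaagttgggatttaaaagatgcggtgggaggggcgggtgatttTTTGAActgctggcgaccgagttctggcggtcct
Pttg1: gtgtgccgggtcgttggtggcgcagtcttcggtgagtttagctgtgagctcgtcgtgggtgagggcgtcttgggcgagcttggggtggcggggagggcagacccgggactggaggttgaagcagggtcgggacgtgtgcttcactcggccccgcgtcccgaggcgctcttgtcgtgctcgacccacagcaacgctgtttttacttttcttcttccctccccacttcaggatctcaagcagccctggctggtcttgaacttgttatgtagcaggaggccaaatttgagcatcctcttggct
The capitals show 1 TTTGAA close to the start in Plk1, Cdc20, Kif23 and Cenpa, each with a CCAAT before it. Anln holds 2 hexamers in opposite orientation side by side and no CCAAT, and Pttg1 holds neither motif. In Kif23 the motifs begin 9 bases apart. In all 17 genes with both motifs a CCAAT lay upstream of a TTTGAA, 9 to 153 bases apart with a median of 26. The TTTGAA nearest to the start lay within 100 bases of it in 19 of the 21 genes (90.5%), against 292 of 769 tested genes with the hexamer (38.0%). Mad2l1, Birc5 and Ncaph had no TTTGAA in the window either. Those 3 genes fell with LPS, while Cdca5, which holds 2 hexamers, did not pass that test.

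**Figure D2:**
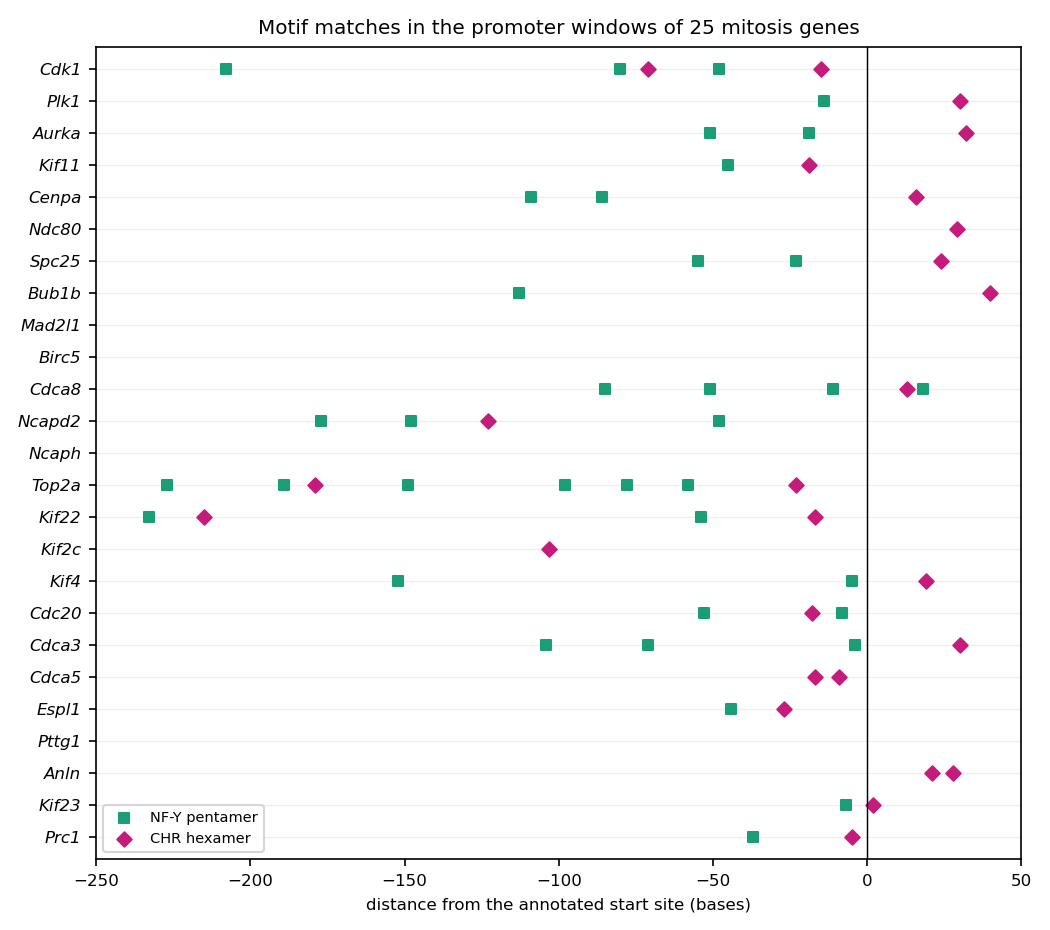
Matches to CCAAT (squares, the NF-Y pentamer) and TTTGAA (diamonds, the CHR hexamer) in the promoter windows of 25 mitosis genes (rows), by distance in bases from the annotated start (x axis, 0 is the start). The diamond nearest to the start lies within 100 bases of it in 19 of the 21 genes that have one, and 4 rows have no diamond.

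Among the genes of mitotic entry, Plk1 and Cdk1 fell with LPS and rose with ROS. Plk1, the polo-like kinase that matures centrosomes and activates Cdk1, had levels of 9.03 and 8.98 on the unstimulated arrays, 9.88 and 9.98 on the ROS arrays and 5.68 and 6.11 on the LPS arrays. The 3 groups did not overlap, with ROS highest and LPS lowest. Plk1 fell by 3.11 ± 0.17 with LPS (8.66-fold, adjusted p = 4.48e-05) and rose by 0.92 ± 0.17 with ROS (1.90-fold, adjusted p = 0.00737). Cdk1, the kinase of mitosis itself, read 8.54 and 8.45 unstimulated, 9.10 and 9.13 with ROS and 6.18 and 6.46 with LPS. The order was the same: Cdk1 fell by 2.18 ± 0.13 with LPS (adjusted p = 7.5e-05) and rose by 0.62 ± 0.13 with ROS (adjusted p = 0.0146). Cdc25c, the phosphatase that removes inhibitory phosphates from Cdk1, lay near background at 5.54 and 5.18 unstimulated, 5.63 and 5.60 with ROS and 4.89 and 5.14 with LPS. It was above background on 1 unstimulated array, both ROS arrays and no LPS array. Its changes of -0.35 ± 0.16 with LPS (adjusted p = 0.12) and 0.26 ± 0.16 with ROS (adjusted p = 0.256) did not pass the test.

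All 3 measured spindle assembly genes fell with LPS, and Aurka rose with ROS. Aurka, the Aurora kinase of the spindle poles, read 9.38 and 9.44 unstimulated, 10.32 and 10.54 with ROS and 6.90 and 7.01 with LPS. The groups did not overlap. Aurka fell by 2.46 ± 0.13 with LPS (adjusted p = 4.06e-05), and its rise of 1.02 ± 0.13 with ROS was the largest among the 28 genes (2.03-fold, adjusted p = 0.00205). Kif11, the plus-end kinesin that pushes the poles apart, read 7.21 and 7.37 unstimulated, 7.24 and 7.22 with ROS and 4.62 and 5.07 with LPS. Only LPS stood apart, where Kif11 was not above background on either array. It was at least 3.53-fold lower there (adjusted p = 0.000132), and its ROS change was -0.05 ± 0.17 (adjusted p = 0.835). Tpx2, which activates Aurora A on spindle microtubules, lay near background throughout, at 5.38 and 5.39 unstimulated, 5.32 and 5.32 with ROS and 4.90 and 4.77 with LPS. Tpx2 was not above background on either LPS array and gets no fold. Its difference passed the test (adjusted p = 0.00755) but not without background correction (adjusted p = 0.0744) nor in the authors' log2 table (adjusted p = 0.375).

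The kinetochore genes fell with LPS, and Cenpa also fell with ROS. Cenpa, the histone H3 variant that marks the centromere, read 13.28 and 13.21 unstimulated, 12.09 and 12.29 with ROS and 10.41 and 10.48 with LPS. Its groups did not overlap, and here the ROS arrays lay between the other two groups. Cenpa fell by 2.80 ± 0.12 with LPS (6.95-fold, adjusted p = 2.29e-05) and by 1.05 ± 0.12 with ROS (2.08-fold, adjusted p = 0.00157). Ndc80, the microtubule-binding subunit of the outer kinetochore, read 7.11 and 7.03 unstimulated, 6.71 and 6.71 with ROS and 4.87 and 5.16 with LPS. Ndc80 was also below the unstimulated arrays on both ROS arrays, but that change of -0.36 ± 0.13 did not pass the test (adjusted p = 0.0803). It passed with median scaling (-0.46, adjusted p = 0.0419) and without scaling (-0.56, adjusted p = 0.0220). With LPS Ndc80 was at least 3.04-fold lower (adjusted p = 9.68e-05). Spc25, a subunit of the same complex, read 5.67 and 5.80 unstimulated, 5.91 and 6.05 with ROS and 4.76 and 4.71 with LPS. Spc25 was at least 1.20-fold lower with LPS (adjusted p = 0.00103), and its ROS change was 0.25 ± 0.12 (adjusted p = 0.148), which passed with the mean over its probes (adjusted p = 0.0375).

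Both measured checkpoint genes fell with LPS. Bub1b, the checkpoint kinase-like protein BubR1, read 6.86 and 6.63 unstimulated, 6.69 and 6.47 with ROS and 4.69 and 4.57 with LPS. The unstimulated and ROS arrays overlapped, and neither LPS array was above background. Bub1b was at least 2.42-fold lower with LPS (adjusted p = 0.000111), and its ROS change was -0.16 ± 0.14 (adjusted p = 0.418). Mad2l1, the Mad2 protein that sequesters Cdc20, read 8.55 and 8.85 unstimulated, 9.15 and 9.26 with ROS and 7.57 and 7.57 with LPS. Mad2l1 stayed above background with LPS, where it fell by 1.13 ± 0.14 (2.19-fold, adjusted p = 0.00109), and it rose by 0.50 ± 0.14 with ROS (adjusted p = 0.0317).

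The chromosomal passenger complex carries Aurora B to centromeres and later to the central spindle, and its 3 measured subunits fell with LPS and rose with ROS. Birc5, the subunit survivin, read 9.03 and 8.98 unstimulated, 9.81 and 9.70 with ROS and 6.36 and 5.71 with LPS. Its groups did not overlap, and the LPS arrays differed most from each other. Birc5 fell by 2.97 ± 0.22 with LPS (7.84-fold, adjusted p = 0.000149) and rose by 0.75 ± 0.22 with ROS (1.68-fold, adjusted p = 0.0386). The other 2 Birc5 probes were also called lower with LPS, being above background on 1 and 0 LPS arrays, and 1 of them did not pass the test with ROS (0.69, adjusted p = 0.0675). Cdca8, the subunit borealin, read 7.67 and 7.86 unstimulated, 8.39 and 8.48 with ROS and 6.24 and 6.09 with LPS. The scaffold Incenp read 8.33 and 7.88 unstimulated, 8.87 and 8.68 with ROS and 7.39 and 7.55 with LPS. The subunits fell to different extents, Cdca8 by 1.60 ± 0.13 (adjusted p = 0.000201) and Incenp by 0.64 ± 0.18 (adjusted p = 0.0278). The Incenp call was lost without the first unstimulated array (adjusted p = 0.123) and without the first LPS array (adjusted p = 0.0944). With ROS they rose by 0.67 ± 0.13 (Cdca8, adjusted p = 0.00897) and 0.67 ± 0.18 (Incenp, adjusted p = 0.0316). The ROS calls of Birc5 and Incenp were each lost in 6 settings, among them no scaling (adjusted p = 0.0670 and 0.145), and that of Cdca8 in 2 (adjusted p = 0.0505 and 0.0586).

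The genes that shape mitotic chromosomes fell with LPS, and Top2a rose with ROS. Top2a, the topoisomerase that untangles sister chromatids, read 8.67 and 8.79 unstimulated, 9.31 and 9.36 with ROS and 5.34 and 5.44 with LPS. It was above background on neither LPS array and was at least 9.58-fold lower (adjusted p = 1.11e-05). With ROS it rose by 0.61 ± 0.11 (adjusted p = 0.00876). The condensin I subunits Ncaph and Ncapd2 were each above background on 1 LPS array. Ncaph read 7.99 and 7.72 unstimulated, 8.18 and 8.14 with ROS and 5.45 and 5.48 with LPS, at least 5.19-fold lower (adjusted p = 4.9e-05). Ncapd2 read 8.09 and 7.85 unstimulated, 7.85 and 7.82 with ROS and 6.07 and 5.13 with LPS, at least 4.62-fold lower (adjusted p = 0.00124). The LPS arrays differed by more for Ncapd2 than for Ncaph. Neither gene passed the test with ROS (Ncaph 0.30 ± 0.13, adjusted p = 0.115, and Ncapd2 -0.14 ± 0.30, adjusted p = 0.748). The other Ncapd2 probe was dimmer, was above background on neither LPS array and changed by -0.91 with LPS (adjusted p = 0.028).

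The 3 chromosome-moving kinesins all fell with LPS, and Kif22 and Kif2c rose with ROS. Kif2c, the kinesin MCAK that depolymerises microtubules to correct attachments, read 7.49 and 7.40 unstimulated, 8.16 and 8.06 with ROS and 5.02 and 4.47 with LPS. Its groups did not overlap, and Kif2c was above background on neither LPS array. Kif2c was at least 3.93-fold lower with LPS (adjusted p = 0.000139) and rose by 0.67 ± 0.19 with ROS (adjusted p = 0.038). Kif22, a chromosome-arm kinesin, read 9.16 and 9.27 unstimulated, 9.79 and 9.91 with ROS and 7.00 and 7.05 with LPS. Kif22 fell by 2.19 ± 0.11 with LPS (4.57-fold, adjusted p = 4.27e-05) and rose by 0.63 ± 0.11 with ROS (adjusted p = 0.00781). Kif4, a chromokinesin of the arms and central spindle, read 6.90 and 7.09 unstimulated, 7.36 and 7.02 with ROS and 4.68 and 4.81 with LPS. Its unstimulated and ROS arrays overlapped (0.19 ± 0.16, adjusted p = 0.376), and it was at least 2.89-fold lower with LPS (adjusted p = 0.000126). The other 2 Kif4 probes were dimmer and changed by -0.54 (adjusted p = 0.135) and -0.93 (adjusted p = 0.00592) with LPS.

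The genes grouped under cohesion and anaphase onset split, with 3 of the 5 lower with LPS, among them Cdca3, which acts at mitotic entry. Cdc20, the activator of the anaphase-promoting complex, read 8.62 and 8.60 unstimulated, 9.40 and 9.24 with ROS and 5.43 and 5.08 with LPS. Its groups did not overlap: Cdc20 was at least 8.82-fold lower with LPS (adjusted p = 2.54e-05) and rose by 0.71 ± 0.15 with ROS (adjusted p = 0.014). Cdca3, a trigger of mitotic entry and partner of a ubiquitin ligase, read 9.02 and 9.09 unstimulated, 9.26 and 8.94 with ROS and 5.05 and 4.66 with LPS. The unstimulated and ROS arrays of Cdca3 overlapped (0.05 ± 0.18, adjusted p = 0.858), while with LPS it was at least 12.0-fold lower (adjusted p = 2.24e-05). Espl1, the cohesin-cutting protease separase, read 5.97 and 5.89 unstimulated, 6.65 and 6.51 with ROS and 4.88 and 4.41 with LPS. It was at least 1.38-fold lower with LPS (adjusted p = 0.00176) and rose by 0.64 ± 0.18 with ROS (adjusted p = 0.0326). The ROS call of Espl1 was lost in 9 of 18 settings, among them no background correction (0.24, adjusted p = 0.104), the authors' log2 table (adjusted p = 0.0873) and leaving out any unstimulated or ROS array. Pttg1 is securin, the inhibitor of separase, and its arrays overlapped between all groups. Pttg1 read 5.76 and 5.84 unstimulated, 5.76 and 5.36 with ROS and 5.92 and 5.60 with LPS. It lay near background, though above it on all 6 arrays. With lowest detected values of 5.47 and 5.46 on the LPS arrays, Pttg1 had little room to fall. Its changes were -0.04 ± 0.18 with LPS (adjusted p = 0.867) and -0.24 ± 0.18 with ROS (adjusted p = 0.335), although without scaling between arrays, when all probes shifted by -0.73, the LPS change was -0.65 (adjusted p = 0.0131). Cdca5, the protein sororin that keeps cohesin on chromatids, read 6.21 and 5.89 unstimulated, 6.55 and 6.64 with ROS and 5.88 and 5.15 with LPS. Cdca5 was above background on 1 LPS array and did not pass the test with LPS (at least 1.30-fold, adjusted p = 0.123) or ROS (0.54 ± 0.25, adjusted p = 0.142). It passed with LPS under median scaling (adjusted p = 0.00784), without scaling (adjusted p = 0.00196) and without the first LPS array (adjusted p = 0.0116), which leaves an array where it is not above background. With ROS it passed in the 3 settings that drop LPS arrays from the fit (adjusted p = 0.0359).

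All 3 measured cytokinesis genes fell with LPS, and none rose with ROS. Anln, the actin-binding scaffold anillin of the cleavage furrow, read 9.86 and 9.90 unstimulated, 9.36 and 9.56 with ROS and 5.05 and 5.23 with LPS. With neither LPS array above background, Anln was at least 21.3-fold lower (adjusted p = 6.57e-06), the highest of the bounds, which do not rank the true changes. Over the alternative settings its fitted log2 change with LPS ran from -5.19 to -2.65, and the other bounds depend on the processing too. With ROS Anln fell by 0.42 ± 0.13 (1.34-fold, adjusted p = 0.0457), a call that was lost when any unstimulated or ROS array was left out (adjusted p from 0.0621 to 0.175). Kif23, the kinesin of the centralspindlin complex, read 8.67 and 8.91 unstimulated, 9.05 and 8.92 with ROS and 5.44 and 4.93 with LPS. Kif23 was at least 10.0-fold lower with LPS (adjusted p = 4.83e-05), and its ROS change was 0.19 ± 0.20 (adjusted p = 0.477). Prc1, which bundles the antiparallel microtubules of the central spindle, read 11.04 and 11.11 unstimulated, 11.00 and 11.25 with ROS and 8.52 and 8.43 with LPS. It stayed well above background with LPS, where it fell by 2.60 ± 0.13 (6.06-fold, adjusted p = 3.59e-05), and its ROS change was 0.05 ± 0.13 (adjusted p = 0.789).

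**Figure D3:**
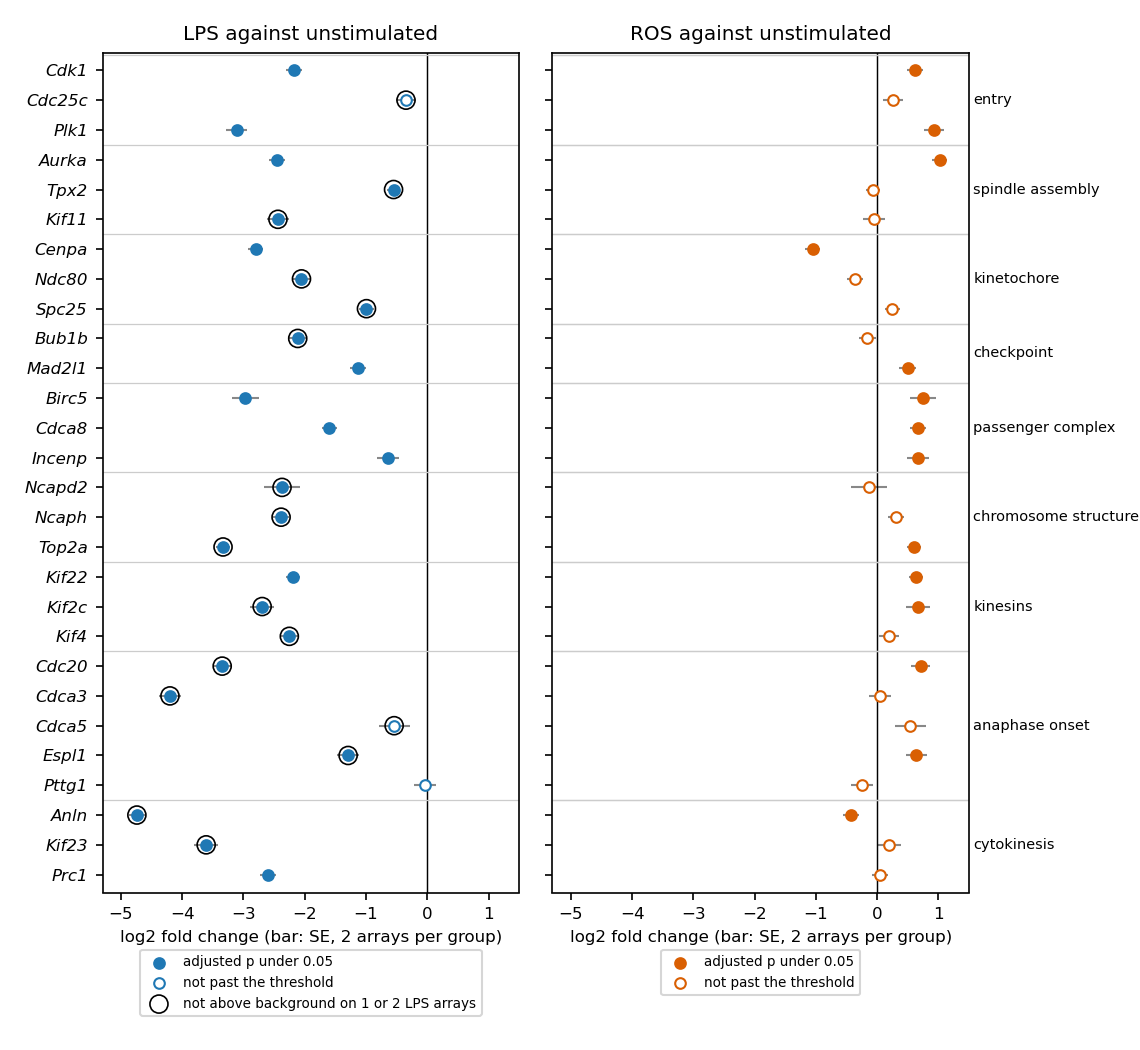
Log2 fold change (x axes) of the 28 mitosis genes (rows, by role) with LPS (left) and ROS (right) against unstimulated cells. Bars are the SE, filled points passed an adjusted p under 0.05, and rings mark genes not above background on 1 or both LPS arrays. Where the text gives an LPS fold for a ringed gene, that fold is a bound. With LPS 25 points are filled and left of 0; with ROS 12 filled points lie right of 0, and Cenpa and Anln lie left of it.

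With ROS the change was smaller and split: 12 of the 28 genes rose and 2 fell, against 21.8% and 18.0% of all genes. The 12 were Cdk1, Plk1, Aurka, Mad2l1, Birc5, Cdca8, Incenp, Top2a, Kif22, Kif2c, Cdc20 and Espl1, and the 2 were Cenpa and Anln. Their fitted rises ran from 0.50 (Mad2l1) to 1.02 (Aurka). The median over the 28 genes was 0.28, with quartiles of -0.06 and 0.65, against 0.05 over all genes. On both ROS arrays 17 genes lay above both unstimulated arrays, against 40.4% of all genes, and 5 lay below both, against 33.3%. The number that rose was 3 without the first unstimulated array, 6 without the second, and 5 without either the first or the second ROS array. Over all probes, calls fell from 4569 to between 2697 and 3045 when 1 of these 4 arrays was left out. Median scaling gave 9 higher and 3 lower genes, and no scaling gave 4 and 3. Aurka, Plk1 and Cenpa kept their calls in each of the 19 alternative settings. The other 11 calls were lost in some: Cdca8, Kif22 and Top2a in 2 settings, Cdc20 in 3, Cdk1 in 5, Anln, Birc5, Incenp and Mad2l1 in 6, Kif2c in 7 and Espl1 in 9.

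Between the treated groups, 27 of the 28 genes were lower with LPS than with ROS and none was higher, against 30.9% and 24.9% of all genes. This comparison shares its arrays with the other 2. On both LPS arrays 27 genes lay below both ROS arrays, against 43.1% of all genes, and none above both, against 35.5%. The median difference was -2.41, or -2.17 with dim genes at their bounds, against -0.08 over all genes. Plk1, the polo-like kinase, was 16.4-fold lower with LPS than with ROS (-4.04 ± 0.17, adjusted p = 1.77e-05) and Aurka 11.1-fold lower (-3.48 ± 0.13, adjusted p = 1.42e-05). Anln was at least 15.9-fold lower (adjusted p = 7.96e-06). Cenpa, which had also fallen with ROS, was 3.35-fold lower (-1.74 ± 0.12, adjusted p = 0.000108). Cdca5 was at least 1.90-fold lower (adjusted p = 0.0131), a call lost without either ROS array (adjusted p = 0.0572 and 0.0688). The 27 also hold Cdc25c (adjusted p = 0.0213), which was kept for the test only through the ROS arrays, where it is high, so its call is no finding. That call was lost in 5 settings (adjusted p from 0.0759 to 0.290, the last in the authors' log2 table). The Tpx2 call (adjusted p = 0.0118) was also lost in 5 settings: an offset of 50, no background correction, the authors' log2 table, an intensity trend and without the second LPS array (adjusted p from 0.0549 to 0.497). Pttg1 did not pass the test (0.20 ± 0.18, adjusted p = 0.388).

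**Figure D4:**
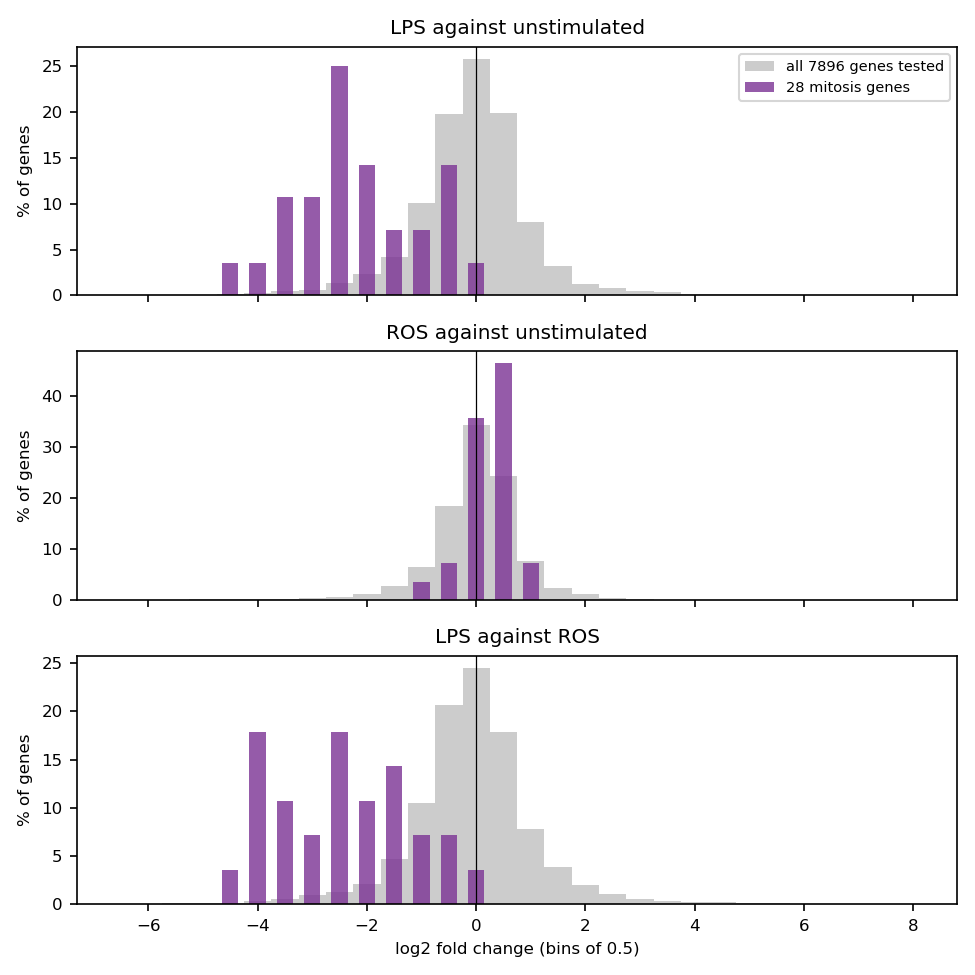
Share of genes in percent (y axes) by log2 fold change in bins of 0.5 (x axis) for the 28 mitosis genes (narrow bars) and all 7896 genes tested (wide bars) in the 3 comparisons. The mitosis genes lie mostly below -1 in both comparisons of LPS and around 0 to 1 with ROS, while all genes centre on 0.

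Further mitosis genes, from lists of their own, also fell with LPS more often than they rose, with medians nearer to 0. The shares of all genes tested to set beside them are 29.0% lower and 24.7% higher with LPS. With ROS they are 18.0% lower and 21.8% higher. Of 19 further kinetochore and centromere genes, 10 fell and none rose with LPS (median -0.54, or -0.14 with dim genes at their bounds), among them Sgo1, the shugoshin that protects centromeric cohesion (at least 2.93-fold lower), and Hjurp, the chaperone that loads Cenpa (-1.76 ± 0.26, adjusted p = 0.00231). With ROS 7 of the 19 rose and 1 fell (median 0.40), led by Cenpt (1.52 ± 0.12, adjusted p = 0.000426). Cenpi, among the 7, was kept for the test only through the ROS arrays, where it is high. Of 20 further spindle and cytokinesis genes, 13 fell and 2 rose with LPS (median -1.02, or -0.81 at bounds), among them the spindle protein Spag5 (at least 5.89-fold lower), the anaphase regulator Cdca2 (at least 7.79-fold) and the microtubule-binding Nusap1 (at least 6.60-fold). With ROS 8 of these 20 rose and none fell (median 0.39), led by Gtse1 (1.75 ± 0.12, adjusted p = 0.000293). Of 6 other genes of entry control, 2 fell with LPS, the Plk1 activator Bora (at least 3.77-fold) and the phosphatase Cdc25b (at least 1.44-fold), and 4 rose with ROS, led by Cdc25a (1.34 ± 0.17, adjusted p = 0.00228). The LPS share of these 6 is near the 29.0% of all genes, and Pkmyt1, among the 4, was kept for the test only through the ROS arrays.

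Lists of genes that also work outside mitosis had medians from -0.57 to -0.05 with LPS. Of 12 further condensin and cohesin genes, 4 fell and 1 rose (median -0.15), and of 11 subunits and activators of the anaphase-promoting complex, 2 fell and 4 rose (median -0.05). With ROS 3 of the 12 and 3 of the 11 rose and none fell. The 4 of 12 that fell with LPS and the 3 of 12 and 3 of 11 that rose with ROS are shares near those of all genes (29.0% and 21.8%). The complex that Cdc20 activates had calls in both directions with LPS, where Cdc20 itself fell. Of 38 DNA replication genes, 22 fell and 3 rose with LPS (median -0.57, or -0.41 at bounds), among them thymidine kinase Tk1 (at least 5.28-fold lower). With ROS 27 of the 38 rose and none fell (median 0.76), led by the helicase subunit Mcm2 (1.85 ± 0.11, adjusted p = 0.000186). Rpa2, among the 27, was kept for the test only through the ROS arrays, where it is high. TTTGAA was in 7 of 13 promoter windows of the further spindle genes (53.8%), 5 of 16 of the further kinetochore genes (31.2%), 2 of 10 of the anaphase-promoting complex (20.0%) and 6 of 32 of the replication genes (18.8%).

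Of 17 transcription factors that act on mitotic genes, 5 fell and 4 rose with LPS, and 3 fell and 4 rose with ROS, shares near those of all genes (29.0% and 24.7%, 18.0% and 21.8%). The activator E2f2 fell with LPS (-2.23 ± 0.25, adjusted p = 0.000791), as did the retinoblastoma gene Rb1 (-1.64 ± 0.11, adjusted p = 0.000117). Mybl2, the B-Myb partner of the MuvB complex, rose with ROS (2.01 ± 0.18, adjusted p = 0.000696). Foxm1, a main activator of mitotic genes that was named after its values were seen, did not pass the test with LPS (-0.35 ± 0.16, adjusted p = 0.121) or ROS (-0.18 ± 0.16, adjusted p = 0.425). Of 7 inhibitors of cyclin-dependent kinases, 3 rose and 2 fell with LPS, against 24.7% and 29.0% of all genes, led by Cdkn1c (2.66 ± 0.14, adjusted p = 3.77e-05). With ROS 3 of the 7 rose and none fell, against 21.8% and 18.0% of all genes. They were led by Cdkn2b (1.80 ± 0.15, adjusted p = 0.000466) and Cdkn1a, the p53 target p21 (1.17 ± 0.14, adjusted p = 0.00168).

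**Figure D5:**
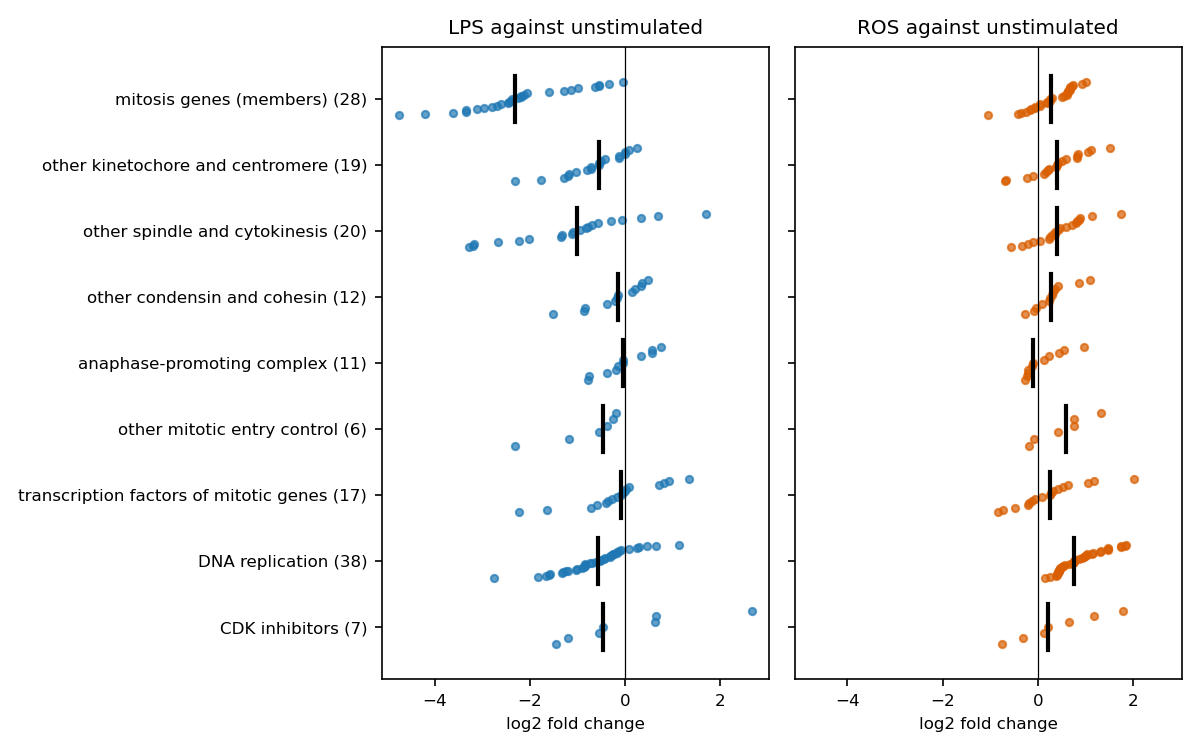
Log2 fold change (x axes) with LPS (left) and ROS (right) against unstimulated cells of each measured gene (points) in the mitosis genes and 8 related lists, with the number measured in brackets; bars are medians. With LPS the mitosis genes have the lowest median, -2.31 (-2.08 with dim genes at their bounds), and with ROS the DNA replication genes have the highest, 0.76.

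Markers of other cells also differed between the groups, some in the direction of the mitosis genes and some against it. The shares to set beside their counts are those of all genes tested. These were 29.0% lower and 24.7% higher with LPS, and 18.0% lower and 21.8% higher with ROS. Summed normalised intensity of the 28 mitosis genes was 19361 and 19124 on the unstimulated arrays, 16725 and 17845 with ROS and 2846 and 2830 with LPS; Cenpa, the brightest probe, weighs most in it. Of 15 measured neutrophil and granulocyte precursor markers, 13 fell and 1 rose with LPS, and their sum was 60478 to 62070 unstimulated, 46334 to 49981 with ROS and 19261 to 19718 with LPS. Of these 15, 5 rose and 8 fell with ROS (median -0.53). Of 6 mast cell and basophil markers, 5 fell and 1 rose with LPS and 5 rose with ROS. Their sum, 2321 to 2455 unstimulated, was 9544 to 9968 with ROS and 12821 to 14581 with LPS, where Hdc rose (4.46 ± 0.13, adjusted p = 6.83e-06). Hdc alone raised the sum with LPS, where the median change of the 6 markers was -2.35. Of 3 eosinophil markers, 2 fell with LPS and 3 rose with ROS, with sums of 8107 to 8211, 20465 to 21432 with ROS and 304 to 317 with LPS. Of 3 progenitor markers, 2 fell with LPS and 1 rose with ROS, and Cd34 was above background on no LPS array. The ROS calls of Cd34, the mast cell marker Cma1, the eosinophil marker Epx and the precursor marker Ms4a3 were made on genes kept only through the ROS arrays. The progenitor sums were 698 to 785 unstimulated, 1552 to 1885 with ROS and 107 to 155 with LPS. Dendritic cell markers went from a sum of 87785 to 98517 unstimulated to 43106 to 44074 with ROS and 50704 to 56336 with LPS. Of the 11 measured, 5 were lower and 2 higher with ROS, and 6 were lower and 1 higher with LPS. Of 7 measured macrophage markers, 4 fell and 2 rose with LPS, and 4 fell and none rose with ROS, each against unstimulated cells. Their sums were 29301 to 31418 unstimulated, 10329 to 15140 with ROS and 19489 to 21347 with LPS. The 2 erythroid markers summed to 1038 to 1083, 1431 to 1455 and 372 to 402, with 1 called higher and 1 lower with LPS. The 2 markers of T, B and natural killer cells summed to at most 128.6. The part of these cells in the changes of the mitosis genes was not tested.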

How the data were processed

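Total RNA of 6 samples, 2 per group, was measured on Illumina mouse bead arrays (1 colour). The deposited linear intensity table holds 25697 probes and comes from GenomeStudio 2009.2 per the submitters' processing notes. How background was handled there is unknown here. A deposited detection p-value per probe exists for 5 arrays; for the second LPS array the limit (160.52 to 160.57) was recovered from the authors' log2 table, which lists each of the 11220 probes detected on at least 3 arrays, is quantile normalised and was used to choose each gene's probe and as an alternative. That array's background mean and SD are therefore estimates.

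Intensities were background-corrected (normexp), given an offset of 16, scaled by quantiles and log2-transformed in R 4.3.3 with limma 3.58.1. The 11622 probes kept had, in 1 or more groups, a detection p under 0.05 on both arrays. The platform annotation paired 10558 probes with 1 symbol, 0 with several and 662 with none. All 6 arrays entered 1 limma fit (lmFit, eBayes) with a coefficient per group and no covariates (3 residual and 3.02 prior degrees of freedom), with Benjamini-Hochberg adjustment over the 11622 probes. The fit was tested on simulated data. The p-values reflect only how far these samples spread, which may be technical. Scan date and slide were not used here.

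Every gene of the list could be named; array values were due for the member of each role with the largest change, for those called against the majority and for those not above background, and were given for all. In other lists up to 3 genes with the largest change past the threshold could be named. The mitosis genes and all lists were chosen with earlier results of these data known. Promoter windows are from RefSeq, GRCm38.p6. Alternatives covered background, offset, scaling, filters, probe choice, the authors' table, the prior, the replicate block and leaving out each array.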

Additional observations from a re-analysis of the deposited data

How the results depend on the processing

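No direction of a count or median reversed. The median change of the mitosis genes was -1.07 (LPS against unstimulated), 0.17 (ROS against unstimulated) and -1.24 (LPS against ROS) without background correction, and -1.01, 0.17 and -1.22 in the authors' log2 table. It was -1.76 (LPS) and -1.78 (LPS against ROS) with an offset of 50, -2.77 and -2.61 with median scaling, -3.01 and -2.75 without scaling (ROS 0.13, with 4 genes higher), and -2.18 and -2.33 with the mean over a gene's probes. Against unstimulated cells, LPS arrays shifted by -0.49 over all probes with median scaling and by -0.73 without scaling, and ROS arrays by -0.15 without scaling. With probes detected on all 6 arrays only 11 of the 28 genes remained in the fit: 10 were lower in each comparison of LPS (medians -2.19 and -2.65), and with ROS 8 were higher and 1 lower (median 0.63). Without the filter on dim probes 7 genes were higher and 1 lower with ROS. Leaving out 1 array gave 24 to 25 lower genes with LPS (medians -2.32 to -2.20), 25 to 27 lower against ROS (-2.56 to -2.34), and with ROS 3 to 13 higher and 1 to 2 lower (0.28 to 0.40); a lone array was assumed to vary like the other groups. Same-numbered replicates did not deviate together (correlations -0.10, 0.02 and -0.02). Whether they share a mouse or culture is not in the labels, and these values cannot decide it. The replicate block left 25 genes lower with LPS, 27 against ROS and 12 higher with ROS, and 1 lower with ROS, the Anln call being lost (adjusted p = 0.0509). Over single genes, 4 of 515 alternative values lost a call with LPS and 5 gained one, with ROS 54 and 6, and against ROS 12 and 0. Signal over background limits the LPS values of 17 genes, whose folds against unstimulated cells are bounds, except Tpx2 and Cdc25c, which get no fold.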
